A study of Rattus norvegicus with 50 samples.

Results

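Genes of DNA replication and cell division were followed in the livers of 50 rats. The set was a list of 42 gene symbols of S phase and mitosis, and each member was read from the probe with the highest mean among those that carry its symbol alone. Of the 42 members, 38 were measured among the 14506 genes tested, and Mki67, Cenpf, Mcm3 and Mcm4 had no such probe. Liver RNA of male Sprague Dawley rats of about 3 months was hybridised to Affymetrix Rat Gene 1.0 ST arrays, 1 array for each animal, in 10 groups of 5 animals. In 3 groups the animals had a brain injury by controlled cortical impact, in which a piston bruises the bared cortex, and received erythropoietin (EPO, 2500 IU/kg), the growth factor of red cell precursors. In 3 others they had the same injury and received anakinra (100 mg/kg), an antagonist of the interleukin-1 receptor. A further 3 injured groups received saline vehicle. Livers of each treatment were taken 24 h, 72 h and 7 days after the injury. The last group was intact sham animals with no time or vehicle in their labels, so that injury, saline, handling and time of collection cannot be told apart in any comparison with sham. For both drugs, the dosing schedule is not given in the sources used here. In bulk tissue, here of the median lobe, fewer cells of a type and less RNA per cell cannot be told apart.

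Cells that enter S phase make deoxynucleotides, load the MCM helicase onto replication origins and copy their DNA, and cells in mitosis use cyclin B with CDK1, the Aurora and Polo kinases and the spindle motors to separate the copies. The RNAs of these genes are made in waves within the cell cycle, S phase genes mainly under E2F factors and mitotic genes mainly under the DREAM and MuvB complexes, and they are low in resting cells. Hepatocytes of the adult liver rarely divide, while blood precursors, macrophages and lymphocytes that lodge or circulate in the liver can. Before birth the liver is the main site of red cell formation.

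All values are log2 RMA values as the authors deposited them. A member is said to have risen or fallen where the adjusted p of limma's test over all 14506 genes was under 0.05. Array medians lay between 6.66 and 6.89. In 30 of the 38 members the mean over all arrays was below the median of all probe means, 6.73. How far such low values stand above background was not tested, as no detection calls were used. The spread over all probes was lowest in 5 arrays, called narrow here (SD 1.99 to 2.04, against a median of 2.11). Of these, 4 were vehicle arrays (array 3 of 24 h, arrays 2 and 5 of 72 h, array 3 of 7 days) and 1 was EPO array 3 of 7 days. In the vehicle group at 72 h, array 5 was the highest of its group in 23 of the 38 members and in 23.5% of all genes. In the EPO group at 72 h, array 5 was the highest in 23 members and in 12.6% of all genes. Array 1 of that group was the lowest in 15 members and in 18.7% of all genes. Sham array 5 was the highest sham array in 19 members and in 20.6% of all genes. The 18 hepatocyte markers, such as albumin and transferrin, averaged 12.51 to 12.81 in every array, so the tissue matched its label.

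At 72 h, genes of S phase and of mitosis rose in EPO livers against vehicle livers. Of the 38 members 12 rose and 0 fell, which is 31.6% of them, beside 2.18% of all genes that rose and 0.545% that fell. In 5 members every EPO liver was above every vehicle liver, against 1.11% of all genes. The difference was above 0 in 36 members, against 44.2% of all genes, and 24 had an unadjusted p under 0.05, against 20%. Its median was 0.26, against -0.03 over all genes. Those that rose were Rrm2, Tk1, Mcm6, Ccna2, Cdkn3, Plk1, Bub1, Kif11, Nusap1, Tpx2, Top2a and Ect2. They cover nucleotide supply, the replication fork, cyclins, mitotic kinases, the spindle and cytokinesis.

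**Figure D1:**
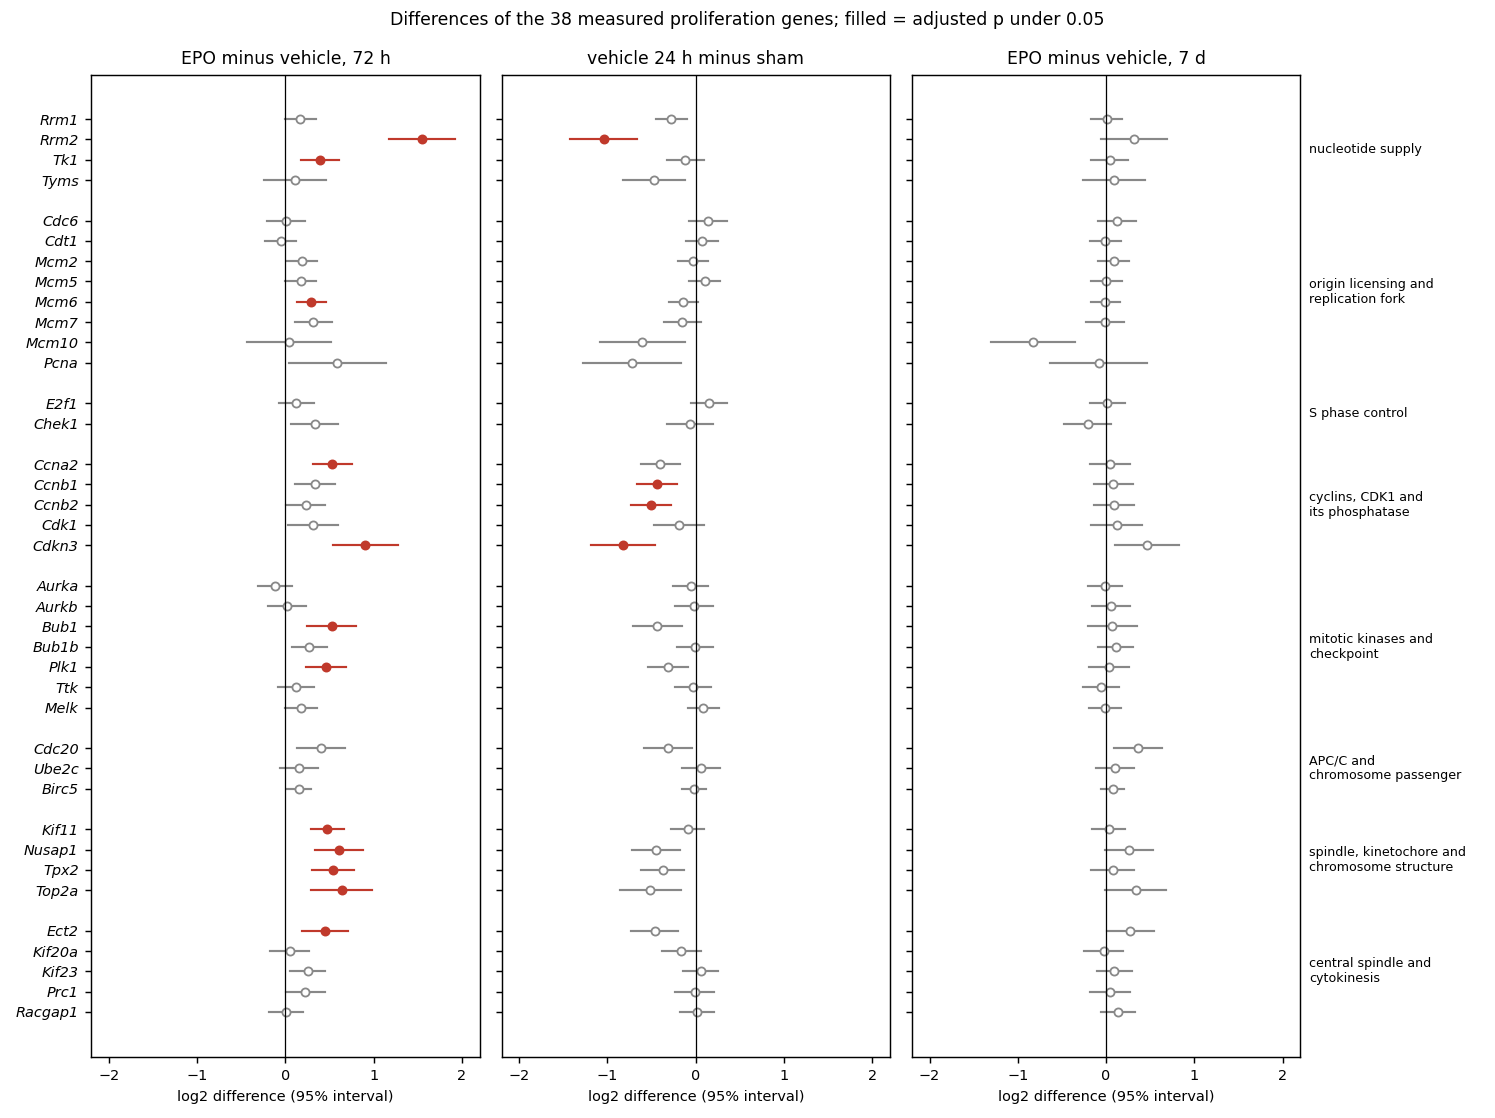
Log2 differences of the 38 measured proliferation genes, grouped by role, with 95% intervals, for EPO minus vehicle at 72 h (left), vehicle at 24 h minus sham (middle) and EPO minus vehicle at 7 days (right). Filled points passed at an adjusted p under 0.05: 12 on the left, all to the right of 0, 4 in the middle, all to the left of 0, and 0 on the right.

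Among the 4 nucleotide supply genes, 2 rose. Rrm2 (probe 10883903), the small subunit of ribonucleotide reductase, which is made in S phase and limits the making of deoxynucleotides, read 6.83, 7.17, 7.61, 7.86 and 7.90 in the 5 EPO livers, against 5.63, 5.79, 5.83, 5.95 and 6.44 in the 5 vehicle livers. The groups did not overlap, and EPO array 1 was the lowest of its group. The difference was 1.55 (95% interval 1.17 to 1.92, adjusted p = 1.29e-07), a 2.92-fold higher level and the 11th smallest p of all genes. A second Rrm2 probe (10810144) gave 1.12 (adjusted p = 3.96e-06). Tk1 (10849228), thymidine kinase of the salvage route, read 7.49, 7.62, 7.79, 7.73 and 7.39 in EPO livers, against 7.07, 7.29, 7.15, 7.23 and 7.31 in vehicle livers. Every EPO liver lay above every vehicle liver, with a difference of 0.39 (SE 0.11, adjusted p = 0.0265). Leaving out vehicle array 1 or 3, or EPO array 2, 3 or 4, ended the call of Tk1 (adjusted p up to 0.102), as did array weights and quantile normalization (up to 0.162 over all alternatives). Rrm1, the large subunit, differed by 0.17 and Tyms, thymidylate synthase, by 0.11, and neither passed. The 2 probes of Rrm1 did not move alike (0.17 and 0.05).

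Of the 8 measured genes of origin licensing and the replication fork, 1 rose. It was Mcm6 (10767338), a subunit of the MCM helicase, with 6.53 ± 0.15 in EPO livers and 6.24 ± 0.06 in vehicle livers (mean ± SD, n = 5 each), no overlap, and a difference of 0.29 (SE 0.08, adjusted p = 0.0351). That call was lost when any of vehicle arrays 1 to 3 or EPO arrays 2, 4 and 5 was left out (adjusted p up to 0.156). It was also lost when all 5 narrow arrays were dropped (0.0784). The other 7 differed by -0.05 to 0.59, and none passed, among them the helicase subunits Mcm7 (0.32) and Mcm2 (0.19) and the licensing factor Cdt1 (-0.05). Pcna, the sliding clamp of the DNA polymerases, averaged 8.57 ± 0.26 in EPO livers and 7.98 ± 0.53 in vehicle livers (SD, n = 5 each), and its difference of 0.59 did not pass (adjusted p = 0.223) beside that wide spread. Of the S phase control genes, E2f1, the transcription factor of S phase entry, differed by 0.12 and Chek1, the replication checkpoint kinase, by 0.33, and neither passed.

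Of the 5 genes for mitotic cyclins, CDK1 and its phosphatase, 2 rose. Ccna2 (10822852), cyclin A2 of S phase and early mitosis, read 5.34, 5.38, 5.10, 5.51 and 5.81 in EPO livers, against 4.78, 4.81, 4.70, 4.90 and 5.31 in vehicle livers. The groups overlapped through vehicle array 5 and EPO array 3 alone, and the difference was 0.53 (SE 0.11, adjusted p = 0.00228). Cdkn3 (10779638), a phosphatase that acts on CDKs and is made late in the cell cycle, read 5.11, 5.31, 5.83, 6.13 and 5.76 in EPO livers, against 4.64, 4.44, 4.67, 4.94 and 4.92 in vehicle livers. Every EPO liver lay above every vehicle liver, and the difference was 0.91 (95% interval 0.54 to 1.27, adjusted p = 0.00123). Ccnb1, cyclin B1, differed by 0.33 (adjusted p = 0.0974), Cdk1 by 0.31 (0.211) and Ccnb2, cyclin B2, by 0.23 (0.246), and these 3 did not pass.

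Of the 7 mitotic kinase and checkpoint genes, 2 rose. Plk1 (10710627), the Polo kinase of mitotic entry, read 6.16, 6.46, 6.27, 6.54 and 6.53 in EPO livers, against 5.80, 5.94, 5.76, 5.78 and 6.39 in vehicle livers. All EPO livers were above the other 4 vehicle livers, and array 5 of vehicle lay inside the EPO range. The difference was 0.46 (SE 0.11, adjusted p = 0.0128). Bub1 (10849737), a spindle checkpoint kinase, read 5.07, 5.73, 5.42, 5.84 and 6.32 in EPO livers, against 5.04, 4.87, 5.17, 5.05 and 5.62 in vehicle livers. Here 3 EPO livers were above every vehicle liver, and the difference was 0.52 (SE 0.14, adjusted p = 0.0226). Plk1 no longer passed when vehicle array 1 or EPO array 4 was left out (adjusted p up to 0.0532). Bub1 no longer passed when any of vehicle arrays 1 and 2 or EPO arrays 2, 4 and 5 was left out (up to 0.163). The other 5 did not pass and differed by -0.12 to 0.27, with Bub1b, another checkpoint kinase, at 0.27 and the Aurora kinases Aurkb and Aurka at 0.02 and -0.12. Of the genes for the anaphase-promoting complex and the chromosome passenger complex 0 of 3 passed: Cdc20 (0.40), Ube2c (0.15) and Birc5 (0.15).

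All 4 measured genes of the spindle and of chromosome structure rose. Kif11 (10715078), the motor that pushes the spindle poles apart, read 6.05, 5.93, 6.10, 6.05 and 6.62 in EPO livers, against 5.61, 5.59, 5.57, 5.66 and 5.96 in vehicle livers. EPO array 2 lay just below vehicle array 5, and no other pair overlapped. The difference was 0.47 (SE 0.09, adjusted p = 0.00107). Nusap1 (10838843), which bundles spindle microtubules, read 5.82, 6.16, 6.22, 6.29 and 6.42 in EPO livers, against 5.35, 5.36, 5.42, 5.74 and 5.99 in vehicle livers. It differed by 0.61 (SE 0.13, adjusted p = 0.00411), and 4 EPO livers were above every vehicle liver. Tpx2 (10840910), the activator of Aurora A on the spindle, read 6.80, 6.88, 6.80, 7.23 and 7.27 in EPO livers, against 6.29, 6.11, 6.51, 6.71 and 6.65 in vehicle livers. The groups did not overlap, with a difference of 0.54 (SE 0.12, adjusted p = 0.0042). Top2a (10746976), the topoisomerase that untangles sister chromatids, read 6.24, 6.43, 6.49, 6.56 and 7.55 in EPO livers, against 5.60, 5.98, 5.61, 5.90 and 7.01 in vehicle livers. In both groups array 5 stood about 1 unit above the next array, 1 EPO liver was above every vehicle liver, and the difference was 0.64 (SE 0.17, adjusted p = 0.0277). Top2a no longer passed when any of vehicle arrays 1 to 3 or EPO array 5 was left out (adjusted p up to 0.205).

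Of the 5 genes of the central spindle and cytokinesis, 1 rose. Ect2 (10822558), the exchange factor that starts the cleavage furrow, averaged 5.54 ± 0.33 in EPO livers and 5.09 ± 0.28 in vehicle livers (SD, n = 5 each), a difference of 0.45 (adjusted p = 0.0476). It passed only in 3 of the 10 fits that left out 1 array, those without EPO array 1 or vehicle array 4 or 5 (adjusted p up to 0.205). Kif23 (0.25), Prc1 (0.22), Kif20a (0.05) and Racgap1 (0.00) did not pass. Over all 12 members that rose, Rrm2, Cdkn3, Ccna2, Kif11, Nusap1 and Tpx2 passed whichever array of either group was left out. Leaving out vehicle array 1 gave 6 members in place of 12, and leaving out EPO array 4 gave 7. Each of vehicle arrays 2 and 3 and EPO arrays 2 and 5, when left out, gave 8, and leaving out EPO array 1 or vehicle array 5 gave 15. With only the EPO and vehicle arrays of 72 h in the fit, 2 members passed, Rrm2 and Cdkn3.

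**Figure D2:**
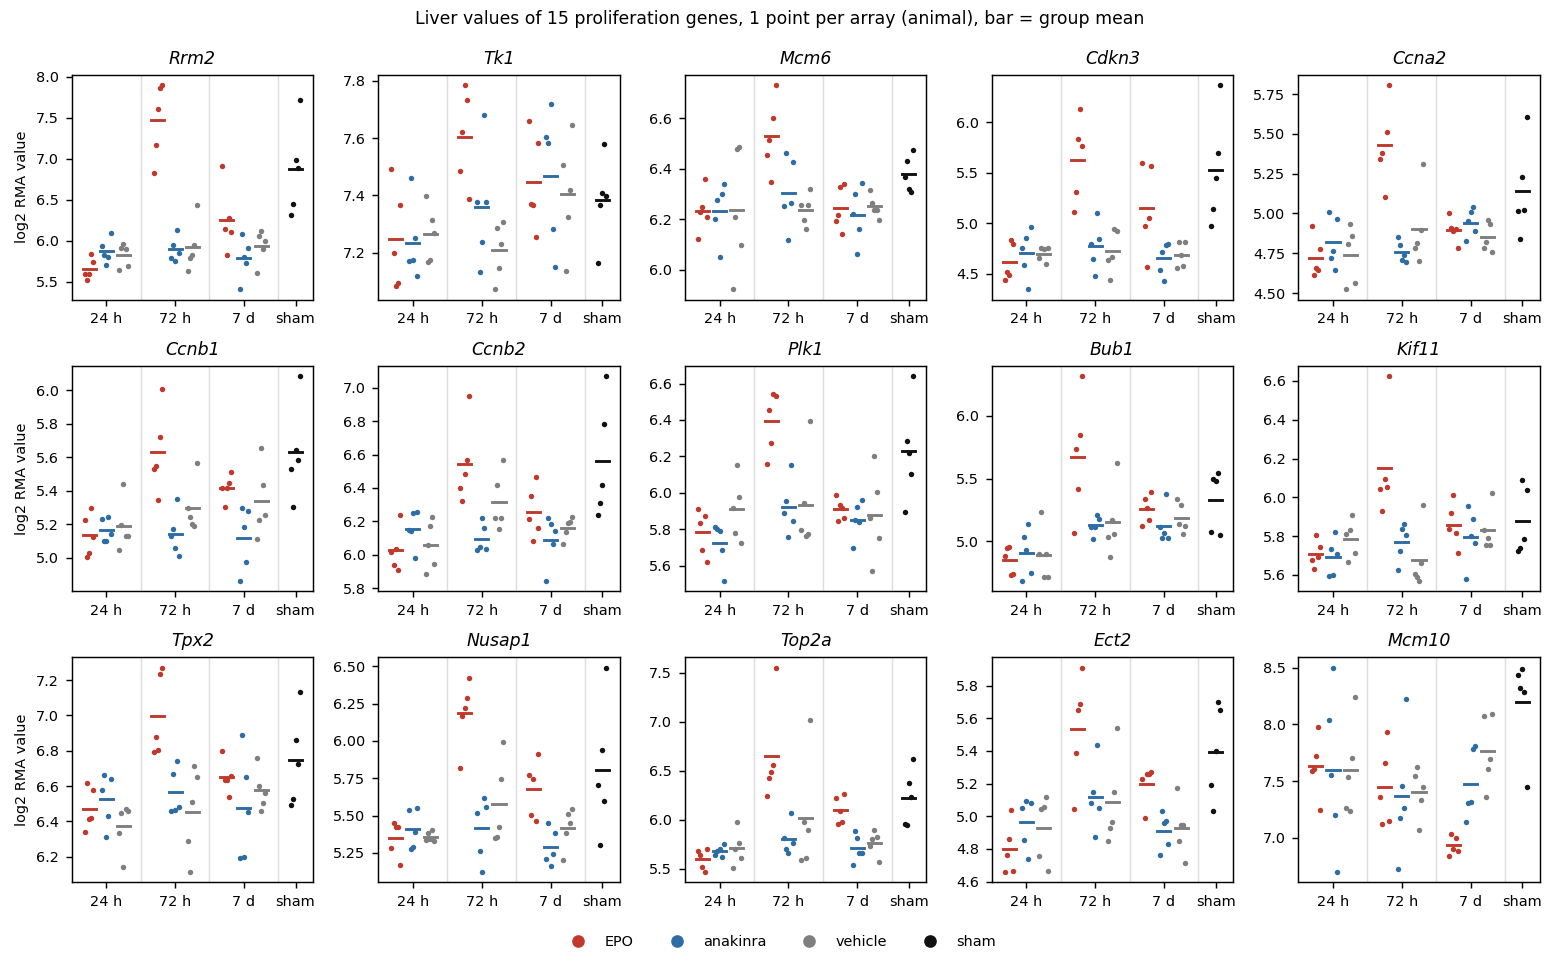
Log2 RMA values of 15 proliferation genes in every array, at 24 h, 72 h and 7 days for EPO, anakinra and vehicle livers (left to right within a time) and for sham livers at the right; points are arrays and bars group means. For Rrm2 the EPO livers of 72 h lie between 6.83 and 7.90, above all other injured livers except that EPO array 1 of 7 days reads 6.91.

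Since members of several roles rose at 72 h, their promoters were set side by side. RefSeq promoters on the GRCr8 build (250 bases before to 50 after the annotated start) were at hand for 33 of the 42 members. None was at hand for Rrm2, Ccna2 and Tpx2, which rose, or for Aurkb, Cdc6, E2f1, Mcm4, Racgap1 and Ube2c. They were searched on both strands for the cell cycle homology region (CHR, TTTGAA or TTCGAA) and the CCAAT box (CCAAT), elements known from mitotic promoters, and for an E2F site (TTTGGCGC, TTTGCCGC, TTTCGCGC or TTTCCCGC), known from S phase promoters. Overlapping matches were each counted. A CHR was in 18 of 33 member promoters, against 19.7% of all 33469 promoters. A CCAAT box was in 24 of 33, against 37.5%, and an E2F site in 9 of 33, against 2.14%. Of the 21 promoters of mitosis members 15 held a CHR and 1 an E2F site, and of the 12 of S phase members 3 held a CHR and 8 an E2F site. Among the members that rose at 72 h, Cdkn3, Top2a, Ect2, Nusap1 and Plk1 held a CHR, and Kif11, Bub1, Mcm6 and Tk1 held none. Bub1 and Tk1 held no match to any of the motifs. Cdk1, Cdc20 and Prc1 held a CHR and did not pass against vehicle at 72 h. These counts describe letters in a window and not sites that were shown to be bound.

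Shown here are the promoters of 3 mitotic members that rose at 72 h with EPO, Cdkn3 (+ strand, chr15:22502136-22502435), Top2a (- strand, chr10:84473044-84473343) and Plk1 (+ strand, chr1:186147408-186147707), of Ccnb2 (- strand, chr8:79981609-79981908), which fell in vehicle livers of 24 h against sham, and of the S phase member Mcm6 (- strand, chr13:42404303-42404602), all from RefSeq on GRCr8 and written 5′ to 3′. Capitals mark the matches, of which Cdkn3 held 1 CHR and 3 CCAAT boxes, Top2a 2 and 4, Plk1 1 and 1, and Ccnb2 2 and 3. Mcm6 held 2 CCAAT boxes and 2 overlapping E2F sites, which read as a single run of capitals. Cdkn3 had a second promoter entry, which is not shown.
Cdkn3: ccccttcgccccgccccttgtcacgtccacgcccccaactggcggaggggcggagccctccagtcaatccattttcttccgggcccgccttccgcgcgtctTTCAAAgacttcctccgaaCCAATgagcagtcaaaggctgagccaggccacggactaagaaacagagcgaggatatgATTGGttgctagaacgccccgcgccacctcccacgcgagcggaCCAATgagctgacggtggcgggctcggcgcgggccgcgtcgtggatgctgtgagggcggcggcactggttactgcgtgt
Top2a: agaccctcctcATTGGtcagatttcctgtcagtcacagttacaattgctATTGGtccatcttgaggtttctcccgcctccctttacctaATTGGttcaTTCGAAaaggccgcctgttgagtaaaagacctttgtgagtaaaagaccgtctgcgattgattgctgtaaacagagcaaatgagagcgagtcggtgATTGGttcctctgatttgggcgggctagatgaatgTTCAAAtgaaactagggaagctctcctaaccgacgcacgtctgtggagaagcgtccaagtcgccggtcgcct
Plk1: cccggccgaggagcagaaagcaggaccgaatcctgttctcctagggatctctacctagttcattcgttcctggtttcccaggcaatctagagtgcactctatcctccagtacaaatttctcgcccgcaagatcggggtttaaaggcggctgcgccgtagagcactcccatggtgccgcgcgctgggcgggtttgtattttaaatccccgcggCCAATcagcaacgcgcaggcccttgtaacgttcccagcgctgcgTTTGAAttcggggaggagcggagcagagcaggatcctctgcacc
Ccnb2: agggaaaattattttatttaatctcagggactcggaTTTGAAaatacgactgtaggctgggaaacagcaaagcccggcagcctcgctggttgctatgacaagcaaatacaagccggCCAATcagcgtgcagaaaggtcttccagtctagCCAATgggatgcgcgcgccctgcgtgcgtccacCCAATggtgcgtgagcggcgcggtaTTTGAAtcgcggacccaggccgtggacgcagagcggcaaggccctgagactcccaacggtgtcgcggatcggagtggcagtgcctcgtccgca
Mcm6: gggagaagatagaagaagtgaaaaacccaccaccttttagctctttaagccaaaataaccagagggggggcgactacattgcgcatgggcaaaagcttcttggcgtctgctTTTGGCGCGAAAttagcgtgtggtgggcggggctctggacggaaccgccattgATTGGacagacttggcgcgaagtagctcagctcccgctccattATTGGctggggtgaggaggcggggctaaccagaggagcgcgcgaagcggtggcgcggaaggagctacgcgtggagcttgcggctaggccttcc

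Further genes of the same processes were counted at 72 h. Of 45 other measured mitosis genes, 8 rose and 0 fell with EPO against vehicle. They included Pttg1, securin, which holds back separase (0.78, adjusted p = 0.000324), Kif4a, a chromosome-bound kinesin (0.56), Plk4, the kinase of centriole duplication (0.45), and Dlgap5, a spindle microtubule protein (0.43). Of 44 other replication and nucleotide genes 0 passed in limma's test, and their differences ran from -0.19 to 0.57. Of 14 measured E2F, DREAM and MuvB regulators 1 rose, Tfdp2, a partner of the E2F factors (1.66, adjusted p = 0.000106), and of 14 genes for cyclins D and E and G1 inhibitors 0 passed. The median difference was 0.13 over the other mitosis genes, 0.08 over the other replication genes, and 0.12 and 0.11 over the last 2 lists.

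Some markers of other cells rose as well in EPO livers against vehicle livers at 72 h. Of 19 measured erythroid markers 15 rose, among them the gene of the Rh-associated glycoprotein Rhag (4.01-fold), the anion exchanger of red cells Slc4a1 (log2 difference 2.89), the membrane skeleton protein gene Epb42 (1.76) and Slc25a37, the mitochondrial iron importer mitoferrin (1.36). The list mean, relative to sham, was 1.18 to 2.50 in EPO livers at 72 h, against -0.18 to 0.69 in vehicle livers. Within a group the erythroid and proliferation list means kept the same order only in part. EPO arrays 1 to 4 were in the same order in both lists. They stood at -0.01, 0.04, 0.08 and 0.24 for proliferation genes and at 1.18, 1.76, 2.08 and 2.50 for erythroid markers. EPO array 5 was highest for proliferation genes (0.33) with an erythroid mean of 1.32. Vehicle array 3 was lowest for proliferation genes (-0.27) and highest for erythroid markers (0.69). Of the neutrophil and granulocyte precursor markers 6 of 17 rose, among them Mmp8 (2.23) and Ngp (1.84), with list means of 0.30 to 0.95 in EPO livers and -0.01 to 0.30 in vehicle livers. Of the Kupffer cell and macrophage markers 9 of 14 rose, among them the scavenger receptor gene Cd163 (0.78), with list means of 0.30 to 0.57 in EPO livers and -0.54 to 0.25 in vehicle livers. Fewer markers passed among lymphocyte and NK cell (3 of 17), liver endothelial (3 of 11), stellate (1 of 11) and cholangiocyte (1 of 7) genes, and 0 of 18 hepatocyte markers passed. The part of these cells in the rise of the proliferation genes was not tested. At 7 days 12 of 19 erythroid markers were higher in EPO than in vehicle livers, with list means of 1.23 to 2.05 against -0.23 to 0.41, while 0 proliferation genes passed. At the same time 0 of 17 neutrophil and 0 of 14 Kupffer cell markers passed, with list means of -0.06 to 0.26 in EPO livers and -0.07 to 0.29 in vehicle livers for neutrophil markers, and of -0.17 to 0.46 and -0.14 to 0.18 for Kupffer cell markers.

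**Figure D3:**
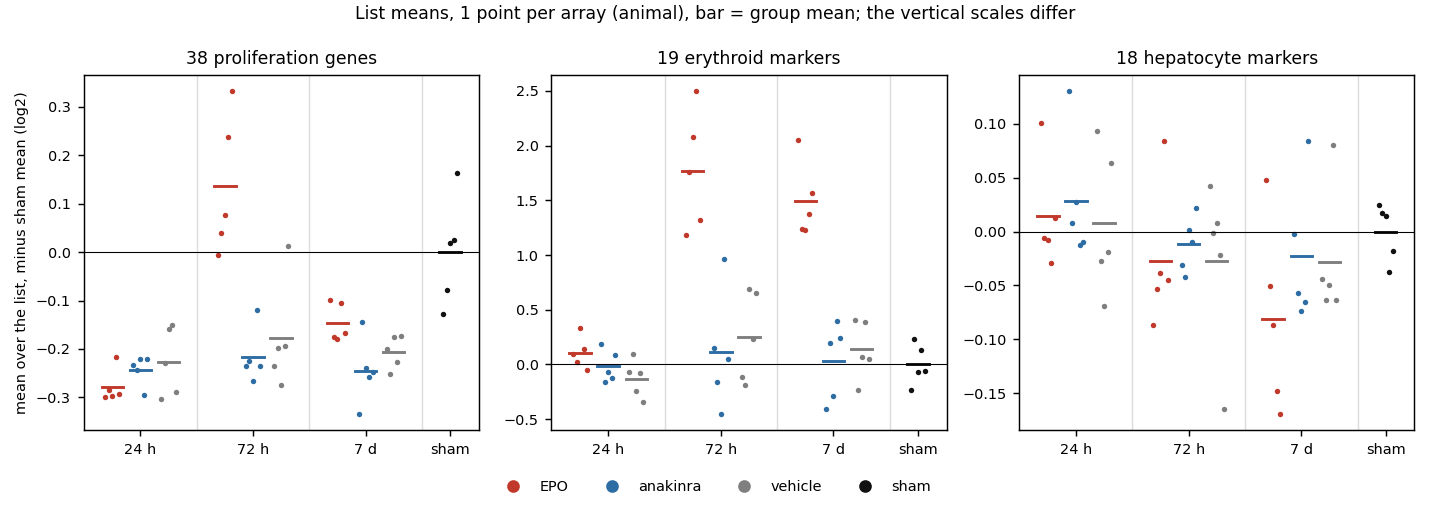
Mean over 38 proliferation genes (left), 19 erythroid markers (middle) and 18 hepatocyte markers (right) in every array, as the log2 difference from the sham mean, for EPO, anakinra, vehicle and sham livers; points are arrays, bars are group means, and the vertical scales differ. The proliferation genes stand between -0.01 and 0.33 in EPO livers at 72 h and between -0.18 and -0.10 in EPO livers at 7 days, while the erythroid markers stand at 1.18 or higher at both times.

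At 24 h and at 7 days no member passed between EPO and vehicle livers. At 24 h the count was 0 in limma's test (beside 0.0276% of all genes that rose with EPO and 0% that fell). Of the differences 31 of 38 were below 0, against 56% of all genes, and 3 members had an unadjusted p under 0.05, against 10.8%. Rrm2 differed by -0.16 at 24 h (95% interval -0.54 to 0.21) and Cdkn3 by -0.09 (-0.45 to 0.28). At 7 days it was 0 again (beside 0.331% of all genes that rose and 0.0345% that fell). Here 28 differences were above 0, against 48.7% of all genes, and 4 members had an unadjusted p under 0.05, against 4.97%. Rrm2 read 6.91, 6.15, 5.82, 6.28 and 6.11 in EPO livers at 7 days, against 5.61, 6.06, 6.12, 5.90 and 5.996 in vehicle livers. The groups overlapped, and the difference was 0.32 (-0.06 to 0.69). Cdkn3 differed by 0.46 at 7 days (0.10 to 0.83, adjusted p = 0.736), with 4 EPO livers above every vehicle liver. Mcm10 was lower in every EPO liver than in any vehicle liver at 7 days, with 6.93 ± 0.08 and 7.76 ± 0.31 (SD, n = 5 each), and the difference of -0.83 did not pass (adjusted p = 0.181). With only the EPO and vehicle arrays of 7 days in the fit, 1 member passed, lower with EPO.

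Whether the EPO difference changed with time was tested as an interaction. Rrm2 was the 1 member that passed (adjusted p = 0.00045, beside 0.214% of all genes), 21 members had an unadjusted p under 0.05 (8.47% of all genes), and the EPO difference of Rrm2 was 1.71 higher at 72 h than at 24 h and 0.48 higher at 7 days than at 24 h. Kif11 came next and did not pass (adjusted p = 0.0851), nor did Cdkn3 (0.222). For the other members a change of the EPO difference with time was therefore not shown. Without vehicle array 5 of 72 h, 5 members passed this test, and without EPO array 1 or 2 of 72 h, 3 and 2 passed.

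Within the EPO animals, livers of 72 h had higher levels than livers of 24 h. Of the 38 members 16 rose (beside 1.76% of all genes) and 0 fell (0.152%), and 20 members had every 72 h liver above every 24 h liver, against 2% of all genes. Rrm2 differed by 1.81 (adjusted p = 6.53e-09), Top2a by 1.05 (5.18e-05), Cdkn3 by 1.02 (0.000217), Nusap1 by 0.83 (3.92e-05) and Bub1 by 0.82 (8.04e-05). For Top2a the 72 h livers read 6.24 to 7.55 and the 24 h livers 5.47 to 5.71. With array weights 25 members rose, and the share of all genes in that fit is not given. The members that rose here and did not pass against vehicle at 72 h were Ccnb1, Ccnb2, Birc5, Cdc20 and Bub1b. EPO livers of 7 days were lower than those of 72 h in 37 of 38 members, against 46.9% of all genes. Here 3 fell (beside 0.31%) and 0 rose (0.0414%): Rrm2 (-1.22, adjusted p = 7.47e-05), Ccna2 (-0.53, 0.00884) and Plk1 (-0.48, 0.032). Without EPO array 5 of 72 h, 1 member passed, and without EPO array 1 of 72 h, 5 members passed. With only the EPO arrays of 7 days and 72 h in the fit, all 3 calls were lost (adjusted p of Rrm2 0.0615, Plk1 0.132, Ccna2 0.195). With the EPO livers of 72 h and 7 days pooled against the vehicle livers of both times, 9 members rose (beside 1.81% of all genes) and 0 fell (0.193%), among them Cdc20 (0.39, adjusted p = 0.0158), the activator of the anaphase-promoting complex. Leaving out single arrays of 72 h, that count was 4 without vehicle array 1 or EPO array 5 and 5 without vehicle array 2, and it was 4 with only these groups in the fit.

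Cell markers moved over the same times within the EPO animals. Erythroid list means were 0.11, 1.77 and 1.49 at 24 h, 72 h and 7 days, neutrophil list means 0.30, 0.66 and 0.12, and Kupffer cell list means -0.03, 0.43 and 0.12, each relative to sham. At 72 h against 24 h, 17 of 19 erythroid, 6 of 17 neutrophil and 4 of 14 Kupffer cell markers rose. At 7 days against 72 h, 1 of 19 erythroid markers, Rhag, and 6 of 17 neutrophil markers, among them Mmp8 and Ngp, fell, and 0 of 14 Kupffer cell markers passed. The part of these cells in the changes of the proliferation genes was not tested.

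Vehicle livers were set against sham livers, a contrast in which injury, saline, handling and time of collection cannot be told apart. At 24 h 4 members fell, 10.5% of the 38 beside 0.455% of all genes, and 0 rose beside 0.372%. The difference was below 0 in 30 members, against 42% of all genes, and in 5 members every vehicle liver was below every sham liver, against 1.67%. Rrm2 read 5.64, 5.92, 5.97, 5.90 and 5.70 in vehicle livers at 24 h, against 6.31, 6.45, 6.99, 6.88 and 7.72 in sham livers. The groups did not overlap, sham array 5 was the highest of its group, and the difference was -1.04 (95% interval -1.42 to -0.67, adjusted p = 0.00192). Cdkn3 read 4.66, 4.75, 4.74, 4.59 and 4.75 in vehicle livers, against 4.97, 5.14, 5.44, 5.70 and 6.37 in sham livers. It differed by -0.83 (SE 0.18, adjusted p = 0.0135), again with no overlap.

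Both B cyclins, the partners of CDK1 at mitotic entry, fell at 24 h as well. Ccnb2 (10918509) read 5.88, 6.06, 6.17, 6.22 and 5.95 in vehicle livers, against 6.24, 6.31, 6.42, 6.78 and 7.07 in sham livers. Every vehicle liver was below every sham liver, by -0.51 on average (SE 0.11, adjusted p = 0.0136), and a second Ccnb2 probe gave -0.47 (0.0264). Ccnb1 (10821016) read 5.04, 5.20, 5.44, 5.13 and 5.13 in vehicle livers, against 5.53, 5.30, 5.64, 5.58 and 6.09 in sham livers. Here vehicle array 3, a narrow array, lay inside the sham range, and the difference was -0.44 (SE 0.11, adjusted p = 0.0407). Next in order, and not past the test, were Ccna2 (-0.40, adjusted p = 0.0646), Ect2 (-0.47, 0.0754) and Nusap1 (-0.45, 0.0962). Of the list of cyclins D and E and G1 inhibitors 2 of 14 fell, Ccnd1, cyclin D1, by -1.20 (adjusted p = 0.00192) and Cdkn1a, the CDK inhibitor p21, by -1.09 (0.0212), and of the other mitosis and replication genes 0 of 45 and 0 of 44 passed. One erythroid marker, Car1, fell (-1.08), and 0 of 18 hepatocyte markers passed. All 14 Kupffer cell and macrophage markers were below 0 with 0 passed, and their list means were -0.46 to -0.06 in vehicle livers and -0.13 to 0.27 in sham livers. Their part in the lower proliferation genes was not tested.

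The count of 4 moved with the sham arrays. It was 1 without sham array 5 and 2 without sham array 4, and it was 7 without sham array 2. Rrm2 passed whichever single array was left out. Cdkn3 did not pass without sham array 5 (adjusted p = 0.0968), Ccnb2 without sham array 4 or 5 (up to 0.102), and Ccnb1 without vehicle array 1, 2, 4 or 5 or sham array 3, 4 or 5 (up to 0.217). With only the 24 h vehicle and sham arrays in the fit, Rrm2 alone passed, and quantile normalization gave 7 members.

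At 72 h and at 7 days 0 members and 0 genes in all passed between vehicle and sham livers in limma's test (0% of all genes each way), with 12 members at an unadjusted p under 0.05 at each time, beside 12.1% and 6.52% of all genes. Rrm2 differed by -0.94 at 72 h (adjusted p = 0.0668) and -0.93 at 7 days (0.121), and Cdkn3 by -0.80 (0.131) and -0.84 (0.146). Without sham array 1, 2 members passed at each of the 2 times, and 1 without sham array 2, and at 72 h also 1 without vehicle array 5. Every vehicle liver of both times was below every sham liver for Cdkn3, and for Rrm2 all but vehicle array 5 of 72 h. An F test over the 3 vehicle groups found 0 members (beside 0.0689% of all genes) that changed with time, with 1 at an unadjusted p under 0.05 (5.35% of all genes). With the 15 vehicle livers pooled, 2 members fell against sham, beside 0.0483% of all genes, and 0 rose beside 0.00689%. They were Rrm2 (-0.97, adjusted p = 0.00101, 14 of 15 livers below every sham liver) and Cdkn3 (-0.82, 0.00554, 15 of 15), and 0 passed without sham array 5 (0.0762 and 0.132), while array weights gave 8. The comparisons of vehicle and of each drug with sham share the 5 sham arrays, so a high sham array enters all of them.

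No proliferation gene passed between anakinra and vehicle livers. In limma's test 0 of 38 members passed at 24 h, 72 h or 7 days, where 0%, 0% and 0.00689% of all genes rose and the same shares fell. At an unadjusted p under 0.05 there were 0, 3 and 0 members, beside 4.25%, 10.7% and 7.62% of all genes. Rrm2 differed by 0.05 at 24 h (95% interval -0.33 to 0.42), -0.03 at 72 h (-0.40 to 0.35) and -0.15 at 7 days (-0.52 to 0.23). These intervals leave out a rise of the size seen with EPO at 72 h. With all times pooled, 0 members passed (beside 0.0276% each way) and 9 had an unadjusted p under 0.05, against 21.4% of all genes. In the interaction with time 0 members and 0 genes passed (0%), and 0 members had an unadjusted p under 0.05, against 2.77%. Tyms had the smallest p in the pooled comparison (0.28, adjusted p = 0.161).

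Anakinra livers were also set against sham livers. At 24 h 3 members fell (beside 0.0689% of all genes), Rrm2 (-0.996, adjusted p = 0.0189), Cdkn3 (-0.82, 0.0383) and Plk1 (-0.51, 0.041). At 72 h Rrm2 alone fell (-0.97, 0.0122, beside 0.0689%). At 7 days 7 fell (beside 0.896%), Rrm2 (-1.08, 0.00119), Cdkn3 (-0.87, 0.00728), Ccnb1 (-0.51, 0.0103), Ccnb2 (-0.47, 0.0185), Nusap1 (-0.52, 0.0287), Cdk1 (-0.54, 0.0335) and Ect2 (-0.48, 0.0395). Rrm2 read 5.41 to 6.08 in the anakinra livers of 7 days, against 6.31 to 7.72 in sham livers. At none of the 3 times did a member rise, beside 0.124%, 0.0414% and 0.931% of all genes. The counts were 0 to 3 at 24 h, 0 to 3 at 72 h and 2 to 8 at 7 days as single arrays were left out. At 24 h 0 passed without sham array 5 or anakinra array 4, and 1 without sham array 3 or anakinra array 1 or 5. At 72 h 0 passed without sham array 5 or anakinra array 1 or 3, while 3 passed without sham array 1 and 2 without sham array 2 or anakinra array 5. At 7 days the lowest counts came without sham array 5 (2), without anakinra array 4 (3), and without sham array 3 or anakinra array 1 or 3 (4 each). With only the anakinra and sham arrays of 24 h in the fit, all 3 calls of that time were lost (adjusted p of Rrm2 0.0652, Plk1 0.0844, Cdkn3 0.128). Array weights gave 8, 9 and 11 members at 24 h, 72 h and 7 days, and the share of all genes in that fit is not given.

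Of the 30 injured livers without EPO, 29 were below every sham liver for Rrm2 and 29 for Cdkn3, and 0 were above every sham liver for either. The count was 26 for Ccnb2 and for Top2a and 25 for Ccnb1 and for Cdk1. These were the highest counts among the members, and the matching counts over all genes were not computed. For Aurka the count was 5, with 4 livers above every sham liver. E2f1 had 8 livers below every sham liver and 14 above, Mcm5 2 and 10, and Ube2c 2 and 6. The low values were therefore not common to all members.

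EPO livers were set against sham livers at each time, with the same 5 sham arrays. At 24 h 5 members fell against sham (beside 0.152% of all genes) and 0 rose (0.283%): Rrm2 (-1.21, adjusted p = 0.000387), Cdkn3 (-0.91, 0.00803), Ccnb2 (-0.54, 0.0154), Ect2 (-0.60, 0.0205) and Ccnb1 (-0.49, 0.0251). At 72 h 0 members passed in either direction, beside 2.74% of all genes that rose and 0.717% that fell, in limma's test. Of the differences 32 of 38 were above 0, against 44.7% of all genes, and 14 members had an unadjusted p under 0.05, against 13.6%. Rrm2 was 0.60 higher than in sham (adjusted p = 0.0576) with 2 EPO livers above every sham liver, and Mcm5 was 0.28 higher (0.0665) with 5 of 5. At 7 days 1 member fell (beside 1.63%) and 0 rose (1.23%). It was Mcm10 (10796347), the replication initiation factor, with 6.93 ± 0.08 in EPO livers and 8.20 ± 0.43 in sham livers (SD, n = 5 each). Every EPO liver was below every sham liver, and the difference was -1.27 (SE 0.24, adjusted p = 0.00103). Without sham array 5, 5 members passed at 72 h and 1 at 24 h. The 72 h count was 3 without EPO array 1 and 1 without EPO array 4, and the 24 h count 3 without EPO array 3 or 5 or sham array 3 or 4. At 7 days 2 members passed without EPO array 1 or sham array 1 or 2, and with only the groups compared in the fit. Array weights gave 12 members at 24 h and 10 at 72 h, of which 9 rose and 1 fell, again without the share of all genes.

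**Figure D4:**
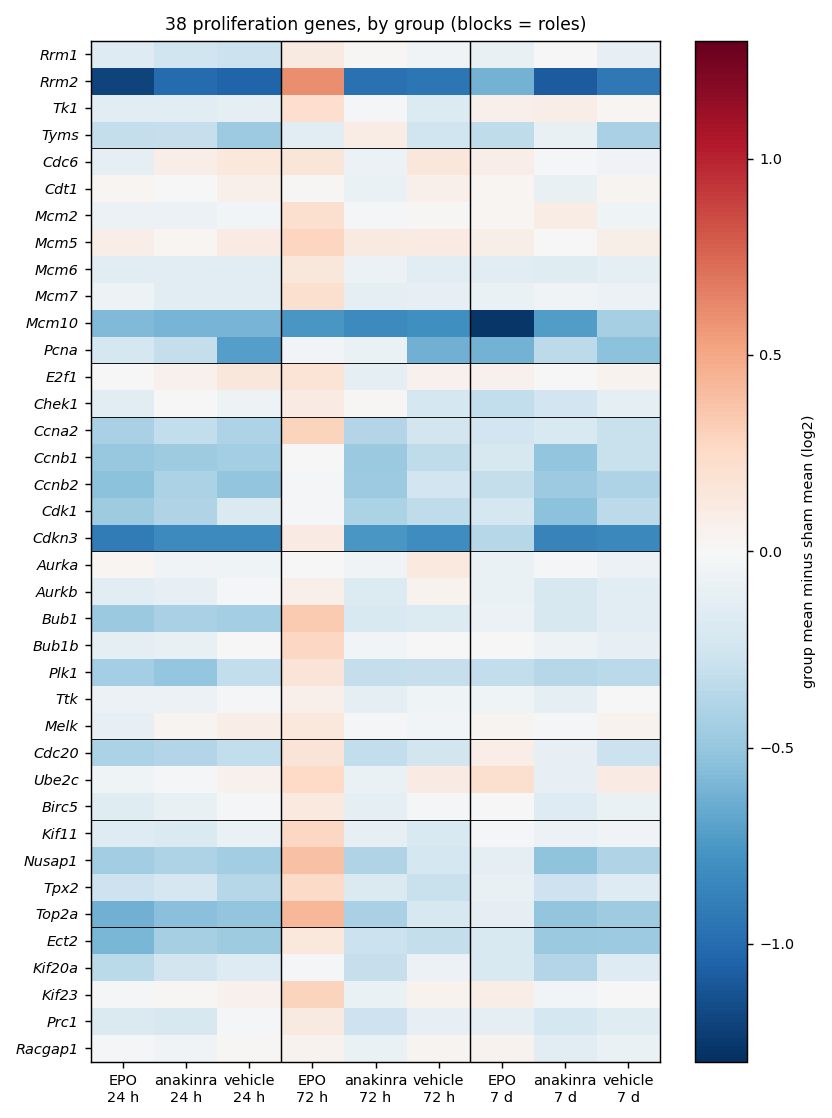
Group means of the 38 proliferation genes as log2 differences from the sham mean, in rows by role and columns by time, with EPO, anakinra and vehicle livers from left to right at each time. Red is above sham and blue below it; EPO at 72 h is the column with most red, and Rrm2, Cdkn3 and Mcm10 hold the deepest blue.

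EPO and anakinra livers were compared directly at each time, a contrast that holds no vehicle or sham mean. At 72 h 15 members rose in EPO livers (beside 1.74% of all genes) and 0 fell (0.2%), and 37 of 38 differences were above 0, against 45.9% of all genes. Rrm2 differed by 1.58 (adjusted p = 7.95e-08), Ccna2 by 0.67 (6.63e-05), Nusap1 by 0.77 (0.000173), Top2a by 0.85 (0.00147) and Cdkn3 by 0.86 (0.00261). In these 5 members every EPO liver was above every anakinra liver, as it was in 12 of 38 members and 1.48% of all genes. The remaining members that rose were Ccnb1, Plk1, Kif11, Ccnb2, Bub1, Kif23, Birc5, Cdc20, Tpx2 and Prc1. At 24 h 0 members passed in limma's test (beside 0.0207% of all genes that rose and 0% that fell), with 0 at an unadjusted p under 0.05 (1.69% of all genes). At 7 days 0 passed (beside 0.407% and 0.0345%), with 10 at an unadjusted p under 0.05 (6.58%). The 72 h count of 15 was 7 without EPO array 5, and 9 without EPO array 4 or anakinra array 3 or 5. With only the EPO and anakinra arrays of 72 h in the fit, 4 members passed, Rrm2, Ccna2, Nusap1 and Cdkn3, and the other 11 did not (adjusted p 0.0512 for Plk1, 0.0681 for Top2a and up to 0.206).

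Across the 10 groups, 30 of the 38 members had their highest group mean in EPO livers of 72 h and 5 in sham livers. The lowest group mean fell in EPO livers of 24 h for 12 members, in anakinra livers of 7 days for 12 and in vehicle livers of 24 h for 5. The shares of all genes by these rules were not computed, so neither set of counts can be set against the other genes. Rrm2 had the widest range of group means, 1.81, with 5.66 in EPO livers of 24 h and 7.47 in EPO livers of 72 h, beside a pooled SD of 0.31 within groups. Mcm10 came next with 1.27 (pooled SD 0.40), then Top2a with 1.05 (0.28) and Cdkn3 with 1.02 (0.30). Unlike Rrm2, Top2a and Cdkn3, Mcm10 was lowest in EPO livers of 7 days and highest in sham livers. In anakinra livers of 24 h Mcm10 spread from 6.70 to 8.50. Pcna, Ccnb2, Cdk1 and Kif20a were also highest in sham livers, and Chek1 and Aurka were also lowest in EPO livers of 7 days.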

How the data were processed

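Liver RNA of 50 rats, 5 in each of 10 groups, was hybridised to 1 array per animal (Affymetrix Rat Gene 1.0 ST). The authors deposited log2 values of 29214 probes, made by RMA with the oligo package per the submitters' processing notes, with no versions given (RMA corrects background, normalizes quantiles and summarises probes). Array medians and spreads still differed in the deposited values. Of the probes, 15310 carry 1 gene symbol, 323 several and 13581 none, and single-symbol probes gave 14506 genes, with the highest-mean probe for each of the 527 genes that had several. The number of arrays limits the precision. No step after RMA was applied. One mean per group was fitted to all 50 arrays with limma 3.58.1 in R 4.3.3 (lmFit and eBayes, 40 residual degrees of freedom, two-sided), and p-values were adjusted by Benjamini-Hochberg over all 14506 genes within each of 23 comparisons and 3 F tests. The threshold was an adjusted p under 0.05. Intervals are at 95%. Every adjusted p in the text is from these limma fits, also where arrays were left out.

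The alternatives were array weights, a fit of only the groups compared, quantile normalization of the deposited values, leaving out the 5 narrow arrays, the replicate number as a block, the mean of a gene's probes, only genes with a mean of at least 6, eBayes with trend and robust, and each array left out in turn. Counts under the alternatives are given without the share of all genes in the same fit, so they cannot be set against the other genes. The code was tested on simulated data. The members, the other gene lists and the tests were chosen with earlier results of these data known. All members may be named. Values in every array are given for the 12 members with the lowest p of all that passed in any of the 9 main comparisons (vehicle against sham, and each drug against vehicle, at each time), other members that passed get a mean or difference, at most 4 that did not pass are named per role beside their range, and up to 4 genes with the smallest p are named from each other list. Promoters came from a RefSeq table on GRCr8, searched with Python 3.11.15. No detection calls were used.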

Additional observations from a re-analysis of the deposited data

Results flagged for a closer look

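Single arrays stood apart in 6 of 120 tests for an outlier within a group of 5 (Dixon's gap test at its 95% critical value), and chance flags about 1 in 20 groups. In EPO livers of 72 h, array 5 was the outlier for Kif11, with 6.62 against 6.10 in the next array, and for Top2a, with 7.55 against 6.56. In vehicle livers of 72 h, array 5, a narrow array, was the outlier for Kif11 (5.96 against 5.66), Plk1 (6.39 against 5.94) and Top2a (7.01 against 5.98). In anakinra livers of 7 days, array 4 was the outlier for Bub1 (5.37 against 5.12).

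The EPO difference of Rrm2 changed with time by the interaction test (limma, adjusted p = 0.00045). It was -0.16 at 24 h, 1.55 at 72 h and 0.32 at 7 days.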

How the results depend on the processing

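No direction of a called result reversed under any alternative, and eBayes with trend and robust moved 0 of 26 counts of members. A count is said to have moved only where it changed by more than the ratio stated for the replicate block in the next paragraph. Smaller changes are not listed, so single calls could end in a comparison whose count did not move. Array weights moved 10 counts: against sham, vehicle gave 1 at 72 h, 1 at 7 days and 8 pooled, EPO 12 at 24 h and 10 at 72 h (9 higher, 1 lower), and anakinra 8, 9 and 11 at the 3 times; EPO at 72 h against 24 h gave 25, and EPO by time 4. With only the groups compared, 8 moved: vehicle against sham at 24 h gave 1, EPO against vehicle 2 at 72 h, 1 at 7 days and 4 pooled, EPO against sham at 7 days 2, anakinra against sham at 24 h 0, EPO against anakinra at 72 h 4, and EPO at 7 days against 72 h 0. Fewer residual degrees of freedom remain in those fits. Quantile normalization moved 7: against sham, vehicle gave 7, 1 and 1 at the 3 times and 7 pooled, EPO 2 at 72 h and 3 at 7 days, and anakinra 2 at 72 h. Outside the comparisons with sham it moved no count but ended single calls. These were Tk1 in EPO against vehicle at 72 h, and Cdc20 and Tpx2 in EPO against anakinra at 72 h. Tpx2 was also lost in EPO at 72 h against 24 h and in pooled EPO against vehicle. Without the narrow arrays 4 moved, all against sham: EPO 8 at 24 h and 3 at 72 h, anakinra 2 at 72 h and pooled vehicle 4. That fit also ended the calls of Mcm6 in EPO against vehicle at 72 h and of Tpx2 in pooled EPO against vehicle. The mean of all probes moved 1, EPO against sham at 7 days, to 2. Keeping genes with a mean of at least 6 leaves 18 members among 10968 genes by construction. Vehicle against sham then gave 2 at 24 h and 1 pooled, EPO against vehicle 4 at 72 h and 3 pooled, EPO against sham 2 at 24 h and 2 at 7 days, anakinra against sham 1 at 24 h and 2 at 7 days, EPO against anakinra at 72 h 5, EPO at 72 h against 24 h 6 and EPO at 7 days against 72 h 1. Apart from that filter, the cause was not tested.

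Same-numbered arrays of 2 groups did not deviate together throughout. Over 90 pairs the correlation of their deviations ran from -0.262 to 0.617 (median 0.0377), with 32 over 0.1, and in 0 comparisons were all over 0.1. For EPO and vehicle at 7 days it was 0.222, 0.381, 0.617, 0.158 and -0.2 for arrays 1 to 5. For anakinra and vehicle at 24 h it was 0.368, 0.34, 0.123, 0.14 and -0.176. For vehicle at 7 days and sham it was -0.262 to -0.0544. These values do not settle whether the number marks a pairing or a batch, which was not tested. The replicate block gave, against sham, 1 and 2 for vehicle at 72 h and 7 days, 1 and 2 for EPO at 72 h and 7 days, and 4 for anakinra at 72 h, and moved no other count by more than 1.5 times.

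Leaving out 1 array gave 1 to 7 members for vehicle against sham at 24 h, 0 to 2 at 72 h, 0 to 2 at 7 days and 0 to 3 pooled. EPO against vehicle gave 6 to 15 at 72 h and 4 to 11 pooled, and EPO against sham 1 to 6 at 24 h, 0 to 5 at 72 h and 1 to 2 at 7 days. Anakinra against sham gave 0 to 3, 0 to 3 and 2 to 8 at the 3 times. EPO against anakinra at 72 h gave 7 to 17, EPO at 72 h against 24 h 14 to 18, EPO at 7 days against 72 h 1 to 5, and EPO by time 1 to 5. All other counts stayed at 0.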
